A study of Mus musculus with 12 samples.

Results

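The integrated stress response genes described here are 9 genes, all present in the table and above 0 in at least 1 of the 12 libraries, of 24340 genes in all. They were chosen by name as ATF4 and CHOP with well-known targets of both: Atf4, Atf5, Ddit3 (the gene of CHOP), Chac1, Trib3, Asns, Sesn2, Ppp1r15a and Psat1. Strand-specific RNA‐seq was performed on both retinas of 6 p16‐3MR mice, 12–16 weeks old, 3 days after the pressure inside 1 eye had been raised to 85–90 mm Hg for 60 minutes by saline infusion, and the other eye of the same mouse served as its control. The groups of 3 libraries each were ctrl and IOP (mice 3, 4 and 6, sham-injected with PBS) and ctrl‐GCV and IOP‐GCV (mice 1, 2 and 5, injected with ganciclovir, GCV, at 25 mg/kg once a day). All mice, controls included, were of the p16‐3MR strain, which makes a viral kinase under p16 control; GCV becomes harmful once this enzyme has acted on it, so the cells aimed at are those with p16 promoter activity, and no group without the transgene was sequenced. Values are FPKM (fragments per kilobase of transcript, scaled to the fragments of the library), with estimated depths of 6830000 to 9070000 fragments in 11 libraries and 4000000 in the IOP library of mouse 6. The control retina of mouse 1 stood apart from the other control retinas by its lens RNA, with 6098 FPKM summed over 14 lens markers against 6.88 to 110 FPKM, although lens is no part of the retina, so the main results are also given without that mouse. Lens sums were also 83.9 to 4312 FPKM in IOP and 2690 to 5375 FPKM in IOP‐GCV retinas. Leaving mouse 1 out therefore does not remove lens RNA from the IOP side.

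The integrated stress response is the common answer of cells to endoplasmic reticulum stress, amino acid shortage, viral RNA and haem shortage. A kinase for each of these signals phosphorylates the translation factor eIF2, which slows protein synthesis in general while the mRNAs of ATF4, ATF5 and CHOP, with short upstream reading frames, are translated more. ATF4 then activates genes for amino acid synthesis and uptake, and with CHOP a set of genes tied to redox stress and cell death, while the product of Ppp1r15a (GADD34) brings a phosphatase back to eIF2. In the retina this pathway is known from injured ganglion cells, the neurons whose axons form the optic nerve. Part of it is translational control, which mRNA levels do not measure.

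The ATF4 composite element core, TGATGNAA, was searched on both strands of RefSeq promoter windows (GRCm38.p6, 250 bases before to 50 after each start site), which matched all 9 genes with 11 windows. It was found in 3 of these 11 windows, those of Asns, Chac1 and Trib3, against 3.97% of 32851 windows of the same length. The sequences are shown for the genes with this core and for Asns and Psat1, the genes called below, 5′ to 3′ on the gene's strand, with the core in capitals. They cover chr6:7693210-7693459 (minus strand) for Asns, chr19:15925060-15925309 (minus) for Psat1, chr2:119350992-119351241 (plus) for Chac1 and chr2:152344028-152344057 (minus) for the 30 bases of Trib3, of which the first lies 3 bases after the start site.
Asns: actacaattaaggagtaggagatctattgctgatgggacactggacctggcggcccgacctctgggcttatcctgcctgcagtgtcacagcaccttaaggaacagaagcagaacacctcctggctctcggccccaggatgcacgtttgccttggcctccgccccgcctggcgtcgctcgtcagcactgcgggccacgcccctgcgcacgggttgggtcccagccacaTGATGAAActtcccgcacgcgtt
Psat1: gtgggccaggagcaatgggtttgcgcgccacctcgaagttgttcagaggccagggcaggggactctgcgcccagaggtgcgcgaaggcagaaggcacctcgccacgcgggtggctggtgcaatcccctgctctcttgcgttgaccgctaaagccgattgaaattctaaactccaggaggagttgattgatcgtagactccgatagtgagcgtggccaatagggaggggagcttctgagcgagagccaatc
Chac1: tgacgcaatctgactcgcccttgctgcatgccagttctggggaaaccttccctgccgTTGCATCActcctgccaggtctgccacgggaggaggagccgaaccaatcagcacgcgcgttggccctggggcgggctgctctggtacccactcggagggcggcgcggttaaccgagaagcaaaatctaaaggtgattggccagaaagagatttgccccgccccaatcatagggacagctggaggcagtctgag
Trib3: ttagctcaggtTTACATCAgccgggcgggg
In Asns, a gene known to carry a nutrient-sensing response element with such a core, the match began at position -23 from the start site. In Chac1 it began at -193 and on the opposite strand. In Trib3 it began at 14, past the start site, also on the opposite strand. Neither window of Psat1 held these letters, which says only that they are not in these windows. The cyclic AMP response element palindrome TGACGTCA was found in 1 of the 11 windows, that of Ppp1r15a at -12, against 1.79% of all windows. The CCAAT box was found in 6 of the 11 windows, against 37.4% of all windows.

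The 9 genes did not move together after IOP elevation. When the IOP effect was averaged over both treatments, Psat1 and Asns, enzymes that make serine and asparagine, fell, and the other 7 genes did not pass the test (limma on log2(FPKM + 1), adjusted p under 0.05). The count of 2 of 9 stood against 12.2% of all 18509 rows tested, and against 7.3% of rows when the mouse entered the fit as a block. These and the later shares count all of these rows. Of them, 12910 had a mean of at least 1 FPKM, as all 9 members had, and shares over those alone are not given here. No member was called higher, where 6.76% of rows were, and 2 were called lower, where 5.44% were. At an unadjusted p under 0.05 there were 5 members, Atf4, Ddit3 and Trib3 higher and Asns and Psat1 lower, beside 30.3% of rows. The median log2 fold change of the 9 genes was 0.012, beside 0.0089 over all rows, with a range from -0.52 for Psat1 to 0.45 for Trib3. Within mice, 7 of 9 members were higher in the IOP eye of mouse 3, 6 in mouse 4, and 4 in each of mice 1, 2, 5 and 6.

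**Figure D1:**
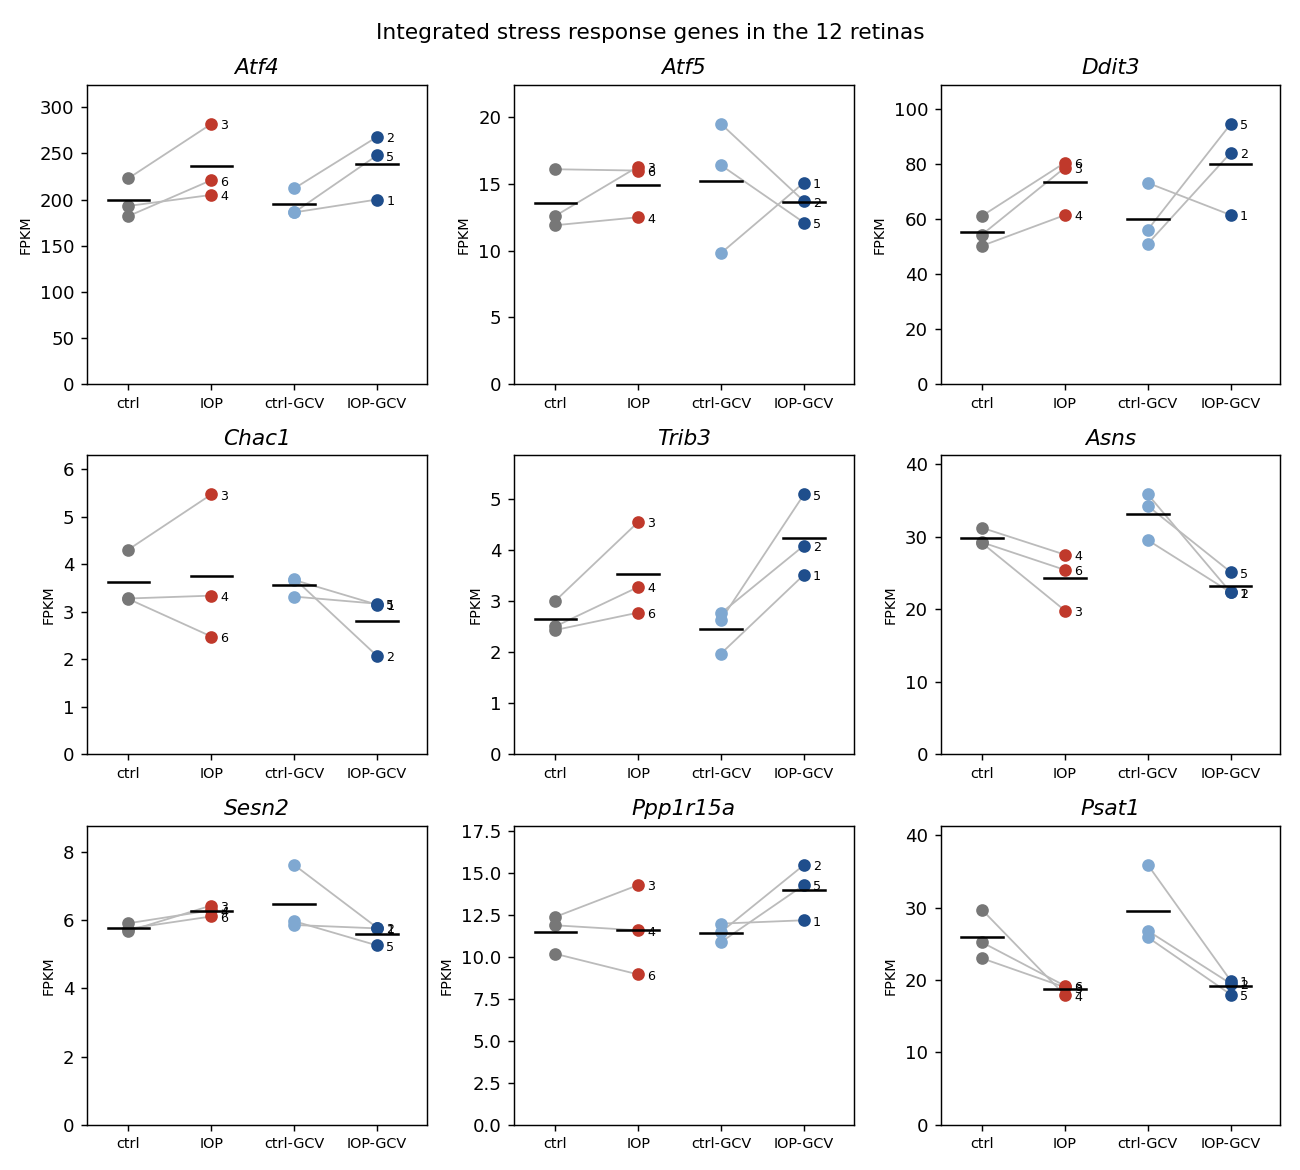
FPKM of each of the 9 genes in the 12 retinas, by group, on axes that start at 0. Points are retinas, grey lines join the eyes of a mouse (its number stands beside the IOP point), and black bars are means of 3 retinas; every line of Psat1 and Asns slopes down, and every line of Atf4 and Trib3 slopes up.

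Atf4, the central transcription factor of the response (chr15:80255184-80257545), was the most abundant member, at a mean of 217 FPKM, higher than 98.6% of rows. It measured 223, 193 and 182 FPKM in the ctrl retinas of mice 3, 4 and 6 and 282, 205 and 221 FPKM in their IOP retinas. In mice 1, 2 and 5 it measured 186, 212 and 186 FPKM in ctrl‐GCV and 200, 268 and 248 FPKM in IOP‐GCV retinas. The IOP eye was thus higher in 6 of 6 mice, from 0.08 in mouse 4 to 0.41 in mouse 5 on the log2 scale, while the ranges over all mice overlapped. Over both treatments the log2 fold change was 0.26 (SE 0.11, limma adjusted p = 0.148), a difference that did not pass the test. Under quantile normalization it was 0.13.

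Ddit3, which encodes the stress factor CHOP (chr10:127290793-127296291), measured 54.4, 50.3 and 61.2 FPKM in the ctrl retinas of mice 3, 4 and 6 and 78.8, 61.5 and 80.6 FPKM in their IOP retinas. In mice 1, 2 and 5 it measured 73.2, 51.1 and 56.2 FPKM in ctrl‐GCV and 61.5, 84.2 and 94.7 FPKM in IOP‐GCV retinas. The IOP eye was higher in 5 of 6 mice and lower in mouse 1, whose control retina had the highest Ddit3 level of the 6 control retinas. That is the control retina with the lens RNA, whose part in the Ddit3 value was not tested. The log2 fold change over both treatments was 0.40 (SE 0.13, limma adjusted p = 0.0685), with an adjusted p from 0.0268 to 0.156 over 20 alternatives, and it passed at 0.56 (adjusted p = 0.0268) without both retinas of mouse 1, at 0.49 (adjusted p = 0.0328) without the IOP‐GCV library of mouse 1 and at 0.46 (adjusted p = 0.0308) without the IOP library of mouse 4. Up to 68 bases of a Ddit3 exon overlap an exon of Mars on the other strand, and the strand setting of the counting is not given in the sources used here.

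Trib3, a pseudokinase induced by ATF4 and CHOP (chr2:152337425-152344060), was a low gene, at 20.6 to 82.5 estimated fragments per library. It measured 3.00, 2.50 and 2.43 FPKM in the ctrl retinas of mice 3, 4 and 6 and 4.54, 3.27 and 2.77 FPKM in their IOP retinas. In mice 1, 2 and 5 it measured 1.97, 2.76 and 2.63 FPKM in ctrl‐GCV and 3.51, 4.08 and 5.08 FPKM in IOP‐GCV retinas. All 6 IOP eyes were above the control eye of the same mouse, and the 3 retinas of IOP‐GCV were all above the 3 of ctrl‐GCV. The log2 fold change over both treatments, 0.45 (SE 0.14, limma adjusted p = 0.0565), was the highest of the 9 and did not pass the test. It passed without the IOP library of mouse 4 (adjusted p = 0.0462), without that of mouse 6 (adjusted p = 0.0416), with rows under 1 FPKM filtered out (adjusted p = 0.0372) and without the variance trend (adjusted p = 0.0382), and it was at 0.107 without both retinas of mouse 1, 0.0907 without both of mouse 6 and 0.0671 with the mouse as a block; over the 20 alternatives the adjusted p ran from 0.0372 to 0.125.

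Thus 2 members, Atf4 and Trib3, were higher in 6 of 6 eye pairs, as were 10.7% of all rows, and with Ddit3 3 members were higher in at least 5, as were 22.6% of rows. In no member did all 6 IOP retinas lie above all 6 control retinas, where 5.47% of rows did.

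Psat1, which carries out the middle step of serine synthesis from glucose intermediates (chr19:15905123-15925059), was lower in the IOP eye of all 6 mice. It measured 23.0, 29.7 and 25.2 FPKM in the ctrl retinas of mice 3, 4 and 6 and 19.0, 17.9 and 19.2 FPKM in their IOP retinas. In mice 1, 2 and 5 it measured 35.9, 26.8 and 25.9 FPKM in ctrl‐GCV and 19.9, 19.5 and 18.0 FPKM in IOP‐GCV retinas. The 6 IOP retinas, at 17.9 to 19.9 FPKM, all lay below the 6 control retinas, at 23.0 to 35.9 FPKM. The log2 fold change over both treatments was -0.52 (SE 0.09, 95% interval -0.72 to -0.31, limma adjusted p = 0.00911), that is 0.700 of the control level on the scale of FPKM + 1. The highest control value and the steepest drop, -0.82 on the log2 scale, were those of mouse 1, whose control retina held the lens RNA; without both retinas of that mouse the change was -0.46 (limma adjusted p = 0.0288). Psat1 passed the test under all 20 alternatives run for this comparison.

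Asns, the synthetase that makes asparagine from aspartate and glutamine (chr6:7675165-7693209), was also lower in the IOP eye of all 6 mice. It measured 29.1, 31.2 and 29.2 FPKM in the ctrl retinas of mice 3, 4 and 6 and 19.8, 27.5 and 25.4 FPKM in their IOP retinas. In mice 1, 2 and 5 it measured 29.5, 35.8 and 34.2 FPKM in ctrl‐GCV and 22.3, 22.3 and 25.1 FPKM in IOP‐GCV retinas. The highest IOP value, 27.5, lay below the lowest control value, 29.1. The log2 fold change over both treatments was -0.40 (SE 0.09, 95% interval -0.59 to -0.20, limma adjusted p = 0.0215). The call was lost, at like sizes of change, without the ctrl library of mouse 3 (adjusted p = 0.0502) or 4 (0.0621), without the ctrl‐GCV library of mouse 2 (0.0605) or 5 (0.0575), and without both retinas of mouse 6 (0.0534) or mouse 1 (0.0529).

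Psat1 and Asns were 2 of 9 members lower in 6 of 6 eye pairs and also 2 of 9 with all 6 IOP retinas below all 6 control retinas, where 10.1% and 2.44% of all rows met these rules. In whole retina, fewer cells of a type and less RNA per cell cannot be told apart. Of 10 markers of Mueller glia, the glia that span the retina, 3 (Glul, Rlbp1 and Car2) were called lower and 2 (Vim and Apoe) higher, beside 5.44% and 6.76% of all rows. Their summed level was 2328 to 2511 FPKM in ctrl, 2166 to 2361 in IOP, 2482 to 2724 in ctrl‐GCV and 2226 to 3341 in IOP‐GCV retinas. The 2 most abundant of them moved opposite ways within that sum. Mean Glul went from 846 to 400 FPKM without and from 1057 to 434 FPKM with GCV. Mean Apoe went from 656 to 1080 FPKM without and from 574 to 1374 FPKM with GCV. Of 12 markers of retinal ganglion cells 10 were called lower, beside the same 5.44% of rows, with sums of 969 to 1239 FPKM in ctrl, 235 to 1071 in IOP, 1212 to 1983 in ctrl‐GCV and 357 to 787 in IOP‐GCV retinas. None of these markers was at 0 in all libraries, and the part of these shifts in the levels of Psat1 and Asns was not tested.

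**Figure D2:**
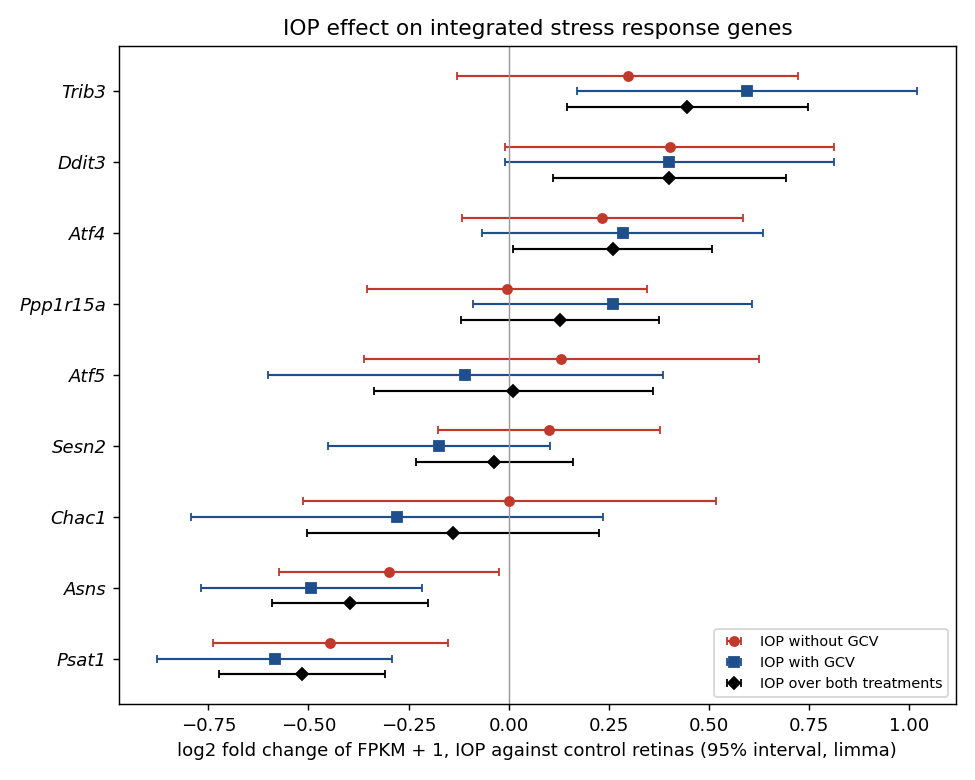
Log2 fold change of FPKM + 1 with its 95% interval (limma) for each of the 9 genes, for IOP without GCV (circles), with GCV (squares) and averaged over both treatments (diamonds). Psat1 and Asns lie to the left of 0 in all 3 comparisons, and the interval of Trib3 over both treatments runs from 0.15 to 0.75.

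The remaining 4 members gave no difference past the test. Chac1, which degrades glutathione (chr2:119351242-119354326), ranged from 3.27 to 4.31 FPKM in the 6 control retinas and from 2.07 to 5.47 FPKM in the 6 IOP retinas, with a log2 fold change over both treatments of -0.14 (95% interval -0.50 to 0.23, limma adjusted p = 0.607). It rested on 14.5 to 63.4 estimated fragments, the fewest of the 9 genes. Its IOP eye was the higher one in mice 3 and 4 and the lower one in the other 4 mice.

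Atf5, a factor related to ATF4 that serves the mitochondrial stress response (chr7:44812256-44816658), ranged from 9.81 to 19.5 FPKM in control and from 12.1 to 16.3 FPKM in IOP retinas. Its log2 fold change over both treatments was 0.01 (95% interval -0.34 to 0.36, limma adjusted p = 0.971), a value that turned to -0.16 without both retinas of mouse 1, and the change between the eyes ran from -0.48 in mouse 2 to 0.57 in mouse 1. Up to 82 bases of its exons overlap exons of Nup62 and Il4i1 on the other strand.

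Ppp1r15a, the feedback subunit that returns eIF2 to its active form (chr7:45522917-45526268), ranged from 10.2 to 12.4 FPKM in control and from 8.97 to 15.5 FPKM in IOP retinas, with a log2 fold change of 0.13 (95% interval -0.12 to 0.37, limma adjusted p = 0.487); up to 12 bases of its exons overlap an exon of Tulp2 on the other strand. Sesn2, a stress-induced inhibitor of mTORC1 signalling (chr4:132492804-132510456), measured 5.68, 5.91 and 5.75 FPKM in the ctrl retinas of mice 3, 4 and 6 and 6.43, 6.29 and 6.11 FPKM in their IOP retinas. In mice 1, 2 and 5 it measured 5.86, 7.62 and 5.97 FPKM in ctrl‐GCV and 5.76, 5.78 and 5.26 FPKM in IOP‐GCV retinas. It was higher in the IOP eye of the 3 mice without GCV and lower in that of the 3 mice with GCV, and its log2 fold change over both treatments was -0.04 (95% interval -0.23 to 0.16, limma adjusted p = 0.815).

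**Figure D3:**
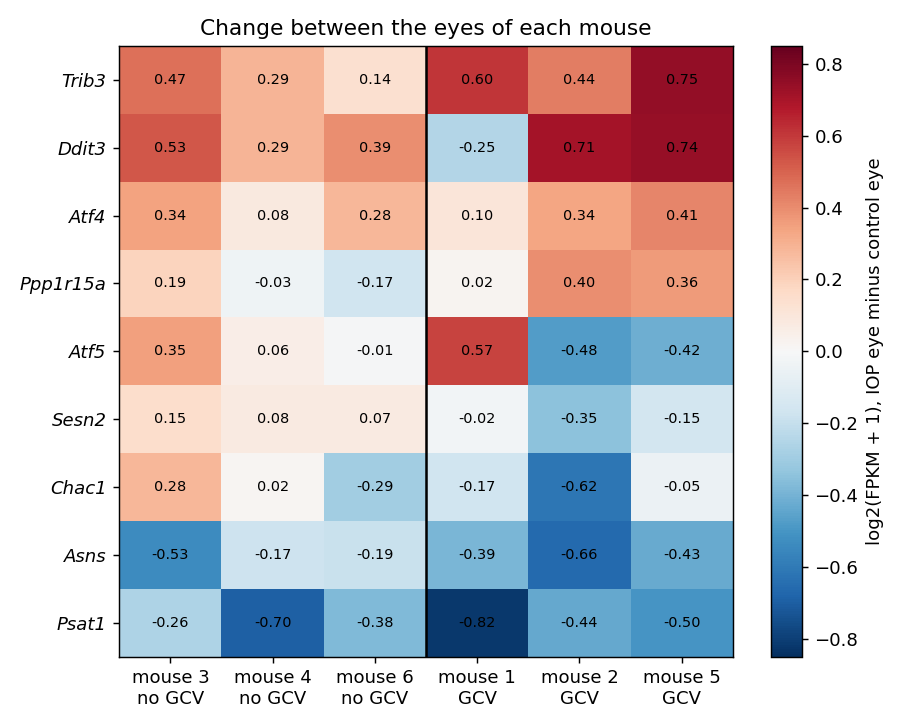
Change in log2(FPKM + 1) between the IOP eye and the control eye of each of the 6 mice (columns; mice without GCV on the left) for the 9 genes (rows). Atf4 and Trib3 are above 0 and Asns and Psat1 below 0 in all 6 columns, and Sesn2 changes sign between the treatments.

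Taken within 1 treatment, 0 of 9 members passed the test (limma) for IOP without GCV, where 1.65% of rows did, and 0 of 9 for IOP with GCV, where 1.8% of rows did. At an unadjusted p under 0.05 there were 2 members, Asns and Psat1, without GCV and 3, with Trib3, with GCV, beside 18.9% and 19.2% of rows. The log2 fold change of Psat1 was -0.45 (SE 0.13, adjusted p = 0.143) without and -0.58 (SE 0.13, adjusted p = 0.0554) with GCV. With GCV Psat1 passed at a pseudocount of 0.1 (adjusted p = 0.0441), with rows under 1 FPKM filtered out (0.0457) and under quantile normalization (0.047). Its adjusted p was 0.115 with the mouse as a block and 0.0832 without both retinas of mouse 6. Without both retinas of mouse 1 the change of Psat1 was -0.47 (adjusted p = 0.196). The log2 fold change of Asns was -0.30 (SE 0.12, adjusted p = 0.237) without and -0.49 (SE 0.12, adjusted p = 0.0771) with GCV. That of Trib3 was 0.30 (SE 0.19, adjusted p = 0.406) without and 0.60 (SE 0.19, adjusted p = 0.143) with GCV. With 1 library left out, the change without GCV ran from 0.14 to 0.42 for Trib3, the lowest without the IOP library of mouse 3, and from -0.39 to -0.17 for Asns, the smallest without the same library. Both IOP comparisons therefore had the same sign in these 3 genes.

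Whether GCV altered the IOP effect was tested as the difference between the effects with and without GCV. No member passed (0 of 9, limma), and none of all rows did (0%); at an unadjusted p under 0.05 there were 0 members and 1.93% of rows. The intervals were wide: the difference was 0.05 for Atf4 (95% interval -0.44 to 0.55), 0.00 for Ddit3 (-0.58 to 0.58), 0.30 for Trib3 (-0.30 to 0.90), -0.19 for Asns (-0.58 to 0.20) and -0.14 for Psat1 (-0.55 to 0.27). With 1 library left out the difference ran from -0.04 to 0.19 for Atf4, from -0.13 to 0.18 for Ddit3, from 0.18 to 0.45 for Trib3, from -0.33 to -0.10 for Asns and from -0.24 to 0.00 for Psat1, and without both retinas of mouse 1 it was 0.32 for Ddit3 and -0.02 for Psat1, so neither its size nor, for Atf4, Ddit3 and Psat1, its sign was stable. For Sesn2, the 1 member that moved one way in all 3 mice without GCV and the opposite way in all 3 with GCV, as 0.978% of rows did, it was -0.27 (-0.67 to 0.12, adjusted p = 0.997).

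Between IOP‐GCV and IOP retinas, 0 of 9 members and 0% of rows passed (limma; 0 members and 4.18% of rows at an unadjusted p under 0.05). The log2 differences, GCV minus no GCV, ran from -0.29 for Chac1 (95% interval -0.81 to 0.22) to 0.26 for Ppp1r15a (-0.09 to 0.61), with 0.02 for Atf4 (-0.33 to 0.37), 0.11 for Ddit3 (-0.30 to 0.52), -0.05 for Asns (-0.32 to 0.23) and 0.03 for Psat1 (-0.26 to 0.32). With 1 library left out the value of Chac1 ran from -0.49, without the IOP library of mouse 6, to -0.05, without that of mouse 3, and that of Ppp1r15a from 0.10, without the IOP library of mouse 6, to 0.41, without that of mouse 3. Between ctrl‐GCV and ctrl retinas, 0 of 9 members and 0% of rows passed (0 members and 1.59% of rows at an unadjusted p under 0.05), with differences from -0.08 for Trib3 (-0.51 to 0.34) to 0.17 for Psat1 (-0.12 to 0.46). Differences of the sizes within these intervals could not be told from 0 with 3 retinas a group.

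The genes around the 9 members are described by lists, as counts over the IOP effect averaged over both treatments. Of 16 genes of the eIF2 kinases and the eIF2 machinery, 1 rose and 0 fell, beside 6.76% and 5.44% of all rows, with a median log2 fold change of 0.17 (0.0089 over all rows). The gene that rose was Eif2ak2, the kinase that senses double-stranded RNA and is induced by interferon, from 1.31 ± 0.261 FPKM in ctrl to 4.97 ± 1.16 FPKM in IOP and from 1.18 ± 0.194 FPKM in ctrl‐GCV to 6.26 ± 4.56 FPKM in IOP‐GCV retinas (SD, n = 3). Its log2 fold change was 1.46 (SE 0.25, limma adjusted p = 0.00655). The other 3 eIF2 kinases gave values between -0.07 for Eif2ak4, which senses amino acid shortage, and 0.19 for Eif2ak3 (PERK), the kinase of the endoplasmic reticulum, and did not pass. The most abundant genes of the list, Eif2b2, Eif2b5 and Eif2b4, subunits of the eIF2 exchange factor, gave 0.36, -0.03 and 0.30.

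Of 15 bZIP factors, several of which pair with ATF4 or CHOP, 4 rose and 0 fell, beside 6.76% and 5.44% of all rows. Atf3, an early stress factor, rose by 2.03 (SE 0.27, limma adjusted p = 0.00184), from 5.15 ± 1.51 FPKM in ctrl to 22.9 ± 6.06 FPKM in IOP and from 4.31 ± 0.832 to 25.0 ± 17.2 FPKM with GCV (SD, n = 3). Cebpd and Cebpb, C/EBP factors of inflammation and acute-phase responses, rose by 3.23 (SE 0.22, adjusted p = 0.000131) and 1.50 (SE 0.29, adjusted p = 0.0125). The remaining called gene, Cebpa, lost its call without both retinas of mouse 1 (adjusted p = 0.0659). The most abundant factors, Creb3, Xbp1 and Atf6b, gave 0.10, -0.01 and -0.02.

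Of 19 further ATF4 genes of amino acid supply, 1 rose and 1 fell, beside 6.76% and 5.44% of all rows, with a median of 0.04. The one that fell was Slc6a9, the glycine transporter GLYT1, by 0.89 on the log2 scale (SE 0.18, limma adjusted p = 0.015), from 53.5 ± 2.19 FPKM in ctrl to 28.3 ± 11.9 FPKM in IOP and from 51.2 ± 3.56 to 29.2 ± 6.75 FPKM with GCV (SD, n = 3); without both retinas of mouse 1 its adjusted p was 0.0515. The one that rose was Aldh18a1, an enzyme of proline synthesis, at 0.49 (adjusted p = 0.045), which was called in 8 of 20 alternatives and had an adjusted p of 0.0668 with the mouse as a block. The other enzymes of the serine route, named here after their values were seen, did not pass: Phgdh, which precedes Psat1, gave -0.08 at a mean of 1.43 FPKM, Psph, which follows it, gave 0.04 at 18.0 FPKM, and Shmt2, which turns serine into glycine in mitochondria and was among the most abundant genes of the list, gave 0.35 (adjusted p = 0.0643) and was higher in 6 of 6 pairs. Slc3a2, the heavy chain of amino acid exchangers, gave 0.23.

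Of 14 genes of tRNA charging and export with a row, all of them tRNA synthetases except Xpot, the tRNA exporter, 1 rose and 1 fell, beside 6.76% and 5.44% of all rows. Tars rose by 0.62 (SE 0.12, limma adjusted p = 0.0145), with an adjusted p of 0.06 without both retinas of mouse 6, and Wars fell by 0.27 (SE 0.08, adjusted p = 0.0471), a call made in 6 of 20 alternatives and lost with the mouse as a block (adjusted p = 0.0535). Aars and Gars gave 0.31 and 0.33 and were higher in 6 of 6 pairs without passing, and Nars gave -0.15. Of 17 tested genes of a list of further ATF4 and CHOP targets, which also holds Nars, 2 rose and 0 fell, beside 6.76% and 5.44% of all rows. Eif4ebp1, which restrains cap-dependent translation, rose by 1.48 (SE 0.26, limma adjusted p = 0.00812), from 2.18 ± 0.552 FPKM in ctrl to 5.02 ± 2.78 FPKM in IOP and from 1.39 ± 0.0966 to 10.2 ± 5.21 FPKM with GCV (SD, n = 3). Nupr1, a stress-induced chromatin protein, rose by 2.36 (SE 0.50, limma adjusted p = 0.0175), with adjusted p up to 0.0536 in the 2 of 20 alternatives that lost the call, without the ctrl library of mouse 4 and without both retinas of mouse 6. It went from 29.0 ± 10.5 FPKM in ctrl to 119 ± 11.7 FPKM in IOP retinas (SD, n = 3). With GCV it went from 55.9 ± 47.7 to 429 ± 468 FPKM, and the IOP‐GCV retinas ranged from 144 to 969 FPKM. Sqstm1 and Map1lc3b, genes of autophagy, gave -0.33 and 0.00.

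**Figure D4:**
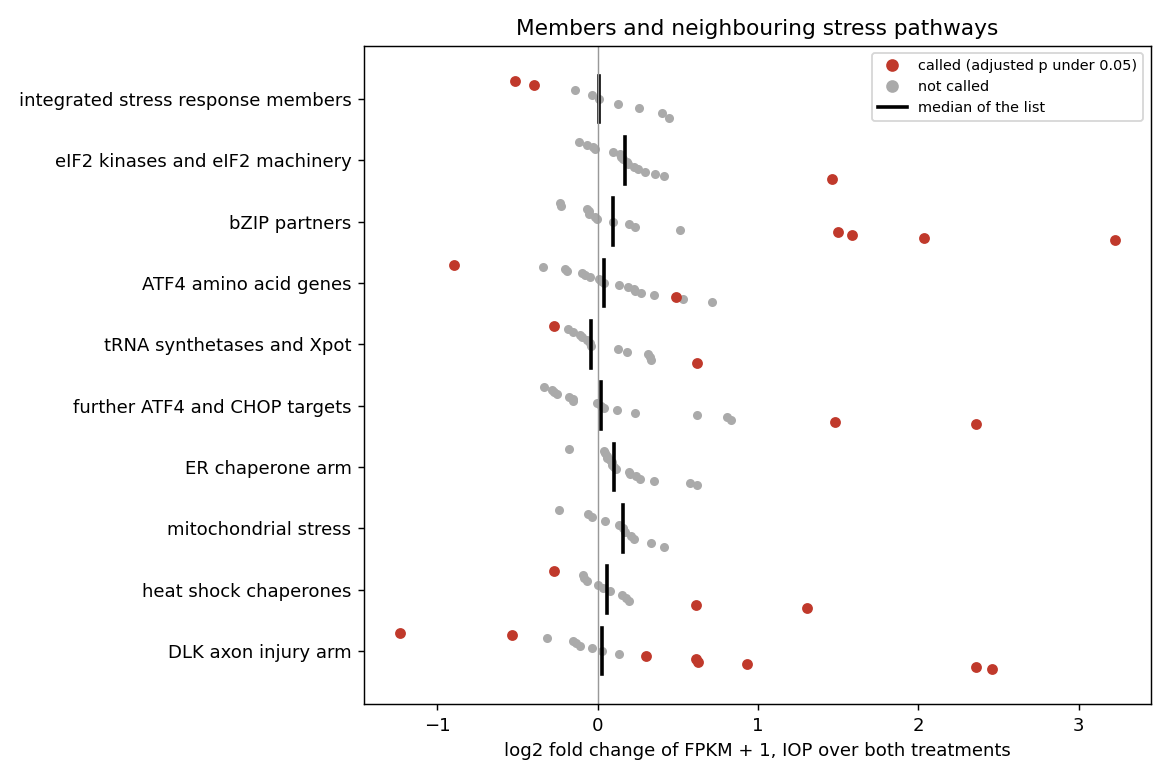
Log2 fold change of FPKM + 1 for IOP over both treatments, 1 point per gene, for the 9 members and the 9 lists around them; red points passed the test (limma adjusted p under 0.05), and black bars are the medians of the lists. The medians lie between -0.04 and 0.17, and the called genes of the bZIP list reach 3.23.

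Of 17 genes of the endoplasmic reticulum chaperone arm, 0 passed the test (limma; 5 higher and 1 lower at an unadjusted p under 0.05), beside 30.3% of all rows in either direction, and 16 had a positive value, as had 51.9% of all rows, with a median of 0.10. Its most abundant genes gave 0.24 for Calr, 0.10 for Hsp90b1 and 0.19 for Hspa5 (BiP), the last of them higher in 6 of 6 pairs. Of 11 genes of the mitochondrial stress list 0 passed (2 higher and 1 lower at an unadjusted p under 0.05, beside the same 30.3%), and Hspa9, Phb2 and Clpp gave 0.16, 0.21 and -0.03.

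Of 12 heat shock genes 2 rose and 1 fell, beside 6.76% and 5.44% of all rows. Hspb1 was at 1.31 (limma adjusted p = 0.0234), Bag3 at 0.62 (adjusted p = 0.0386) and Hspa4l at -0.27 (adjusted p = 0.0221), calls made in 15, 8 and 12 of 20 alternatives. With the mouse as a block the adjusted p was 0.0826 for Bag3 and 0.0652 for Hspa4l. The abundant chaperones Hsp90ab1, Hspa8 and Hsp90aa1 gave -0.09, -0.08 and 0.01.

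The kinase DLK acts upstream of both JUN and the integrated stress response in injured ganglion cells. Of 15 genes of that axon injury arm, 6 rose and 2 fell, beside 6.76% and 5.44% of all rows, with a median of 0.03. Jun rose by 0.93 (SE 0.17, limma adjusted p = 0.00877), from 15.0 ± 0.684 FPKM in ctrl to 32.2 ± 10.7 FPKM in IOP and from 14.3 ± 1.82 to 27.2 ± 7.77 FPKM with GCV (SD, n = 3). Ecel1, an endopeptidase gene induced by nerve injury, rose by 2.36 (SE 0.21, adjusted p = 0.000317). Sprr1a, a regeneration-associated gene, rose by 2.46 (SE 0.51, adjusted p = 0.017), and its adjusted p was 0.0516 without both retinas of mouse 1. The other calls of the list, Sox11, Klf6 and Hrk higher and Map3k13 and Mapk10 lower, were made in 8 to 12 of the alternatives, and with the mouse as a block those of Klf6 (adjusted p = 0.065), Hrk (0.0621) and Map3k13 (0.058) were lost. The abundant genes Map2k7, Gap43 and Mef2a gave -0.03, -0.11 and 0.13.

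Other cell markers also differed for IOP over both treatments. Of 9 reactive glia markers 9 were called higher, of 11 microglia markers 9, of 12 leukocyte markers 9 and of 14 lens markers 9, beside 6.76% of all rows. Of 10 rod, 11 pigment epithelium and 8 endothelial markers 0 passed (limma; 1, 0 and 1 at an unadjusted p under 0.05), counts too small to be read against the 12.2% and 30.3% of all rows. The reactive glia sum was 87.8 to 222 FPKM in ctrl, 694 to 783 in IOP, 91.0 to 138 in ctrl‐GCV and 651 to 1725 in IOP‐GCV retinas. The leukocyte sum was 10.0 to 49.6 FPKM in ctrl, 337 to 811 in IOP, 12.1 to 39.3 in ctrl‐GCV and 187 to 2806 in IOP‐GCV retinas, and the microglia sum 69.9 to 107, 303 to 759, 79.6 to 88.6 and 251 to 752 FPKM in the same order. The lens sum was 6.88 to 36.5 FPKM in ctrl, 83.9 to 4312 in IOP, 66.5 to 6098 in ctrl‐GCV and 2690 to 5375 in IOP‐GCV retinas. The rod sum was 50157 to 63215 FPKM in ctrl, 33954 to 47533 in IOP, 44501 to 54946 in ctrl‐GCV and 34322 to 54668 in IOP‐GCV retinas, so the 3 IOP retinas lay below the 3 ctrl retinas, while the groups with GCV overlapped. No marker of these lists was at 0 in all libraries, and the part of these cells in the values of the stress genes was not tested.

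The genes most like Atf4 over the 12 libraries, by Pearson correlation of log2(FPKM + 1) among 12910 rows with a mean of at least 1 FPKM, were Mok (r = 0.964), Imp3 (0.932), Dtd2 (0.917), Ubxn8 (0.904) and Ier2 (0.903). Those most like Ddit3 were Gm6548 (0.939), Rpl36al (0.939), Mrpl17 (0.927), Nsmce1 (0.924) and Pnpt1 (0.915). The members were left out of this ranking. Over the same libraries, the correlations of Atf4 with the other members ran from -0.70 for Asns to 0.84 for Trib3. Those of Ddit3 ran from -0.69 for Asns to 0.63 for Atf4. All these values describe 12 libraries that share mice, groups and depth.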

How the data were processed

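RNA of 12 retinas (both eyes of 6 p16‐3MR mice, 4 groups of 3) was prepared with a stranded mRNA kit and sequenced as read pairs. The deposited table of 24340 genes holds FPKM values made by the authors; the unit was inferred from the steps of low values. The methods name counting on RefSeq exons with HOMER, while the submitters' processing notes list TopHat2, Bowtie2, Cufflinks, Cuffdiff and mm10, without roles; the scaling is not given in the sources used here. Depth was estimated from single-transcript genes; intervals for single values were not computed, since counts were not used.

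Values were analysed as log2(FPKM + 1), on which fold changes of low genes are understated, with limma 3.58.1 in R 4.3.3 over 18509 rows above 0 (4 group means, variance trend, Benjamini-Hochberg over all rows, called at 0.05). The same fit, with the mouse as a block among the alternatives, gave the 6 comparisons. Eyes of a mouse share its number in the labels, which pairs them; their deviations from group means correlated at -0.12, 0.13, 0.21, 0.39, 0.17 and 0.10 in mice 1 to 6 (12910 rows). The labels give 3 mice a treatment, so p-values rest on 3 retinas a group. Scripts were tested on simulated data. Named were all members, the 3 most abundant genes of each list and up to 3 called genes with the smallest adjusted p, plus the 2 most abundant genes of each cell type list where a result turned on them. Eif2ak3, Eif2ak4, Cebpa, Phgdh, Psph, Xpot, Sox11, Klf6, Hrk, Map3k13, Mapk10, Rlbp1, Car2 and Vim fall outside that rule and were named after their values were seen. The members and lists were chosen with earlier results of these data known. Positions, promoters and exon overlaps come from RefSeq (GRCm38.p6) and the GENCODE annotation of that build. The alternatives tried used a pseudocount of 0.1, only rows of at least 1 FPKM in 3 libraries, other thresholds, median-ratio and quantile scaling, no variance trend, only the groups compared, each library left out and, chosen after seeing the data, mouse 6 or mouse 1 left out.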

Additional observations from a re-analysis of the deposited data

Results flagged for a closer look

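The IOP effect on Sesn2 with GCV minus that without GCV was -0.27 on the log2 scale (limma adjusted p = 0.997). It stood out because all 3 mice without GCV had a higher value in the IOP eye (5.68, 5.91 and 5.75 against 6.43, 6.29 and 6.11 FPKM) and all 3 mice with GCV a lower one, although the test of the difference did not pass. The drop in mouse 1 was only -0.02, and without the ctrl‐GCV library of mouse 2 the difference was -0.17 and the IOP effect with GCV was -0.07 in place of -0.17.

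Sesn2 in the 6 control retinas held 1 value far from the others, 7.62 FPKM in that same ctrl‐GCV retina of mouse 2, with a gap of 0.854 of the whole range, above the critical value for 6 samples (Dixon). Chac1 in the 6 IOP retinas held 5.47 FPKM in the IOP retina of mouse 3, with a gap of 0.627 of the range. Such gaps were looked for in 27 sets of values, and chance gives about 1 in 20.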

How the results depend on the processing

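For IOP over both treatments, 2 members passed; 4 did at an adjusted p under 0.1, 5 at an unadjusted p under 0.05, between 1 and 4 with 1 library left out, 2 without both retinas of mouse 1 (Ddit3 and Psat1) and 1 (Psat1) without both retinas of mouse 6, whose IOP library is shallow. The causes of these moves were not tested, beyond fewer libraries in the fit. For IOP without GCV, 0 members passed and 2 did at an unadjusted p under 0.05. For IOP with GCV, 0 passed, 2 at an adjusted p under 0.1, 3 at an unadjusted p under 0.05 and 1 each at a pseudocount of 0.1, with the filter of 1 FPKM and under quantile normalization. With the mouse as a replicate block, 0, 0, 2 and 0 members passed for IOP without GCV, IOP with GCV, IOP over both treatments and the difference between the effects, so the block changed no member's call; adjusted p was 0.0422 for Asns and 0.031 for Psat1. For the difference and for both GCV comparisons the count was 0 under every alternative run. The scalings moved the median of all genes to between -0.0169 and 0.00793. Depth limits Chac1 and Trib3 most.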
